A study of Mus musculus with 20 samples.

Results

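Foxp3, the factor that defines regulatory T (Treg) cells, and 7 transcription factors that work with it or on its gene (Runx1, Runx3, Cbfb, Foxo1, Foxo3, Bach2 and Satb1) were followed by RNA sequencing in sorted CD4+ T cells. The 8 genes were taken by symbol from 2 count tables, and all 8 were found in each. They were 8 of 16784 genes tested in mesenteric lymph nodes (mLNs) and 8 of 16357 genes tested in pooled spleen and peripheral lymph nodes (pLNs). The 20 libraries came from C57BL/6 mice aged 14 weeks. Treg cells (CD4+, positive for a YFP reporter) and Foxp3- cells (CD4+, YFP-negative) were sorted from WT mice that carried the Foxp3Cre allele and from Tet2/3fl/fl Foxp3Cre mice (DKO), with 3 replicates per group in mLNs and 2 in spleen and pLNs. The Foxp3Cre allele, present in both genotypes, couples a YFP-Cre fusion to the Foxp3 gene, so Cre was made in Foxp3-expressing cells and the floxed Tet2 and Tet3 genes, which encode enzymes that oxidize 5-methylcytosine in DNA, were deleted there. The sorting gate read YFP from the Foxp3 locus itself, so the Foxp3 difference between Treg and Foxp3- cells was set by the gate and is given as a description with no test. Of the YFP-negative cells of DKO mice, the study states in one place that Tet2 and Tet3 were not deleted and in another that their RNA over the deleted exons was reduced. The study described a larger spleen in one of the 2 DKO littermates used for spleen and pLNs, and the replicate numbers do not tell which.

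Foxp3 binds DNA as part of large complexes and both activates and represses genes. Runx1 and Runx3 bind DNA as heterodimers with Cbfb, which raises their affinity for DNA, and Runx–Cbfb complexes bind both the Foxp3 gene and the Foxp3 protein. Foxo1 and Foxo3 are forkhead factors held in the cytoplasm by Akt signaling, and in the nucleus they bind the Foxp3 gene and drive genes of resting T cells. Bach2 represses effector genes by competing with AP-1 factors, and Satb1 organizes chromatin loops, opens Treg super-enhancers in the thymus and is repressed by Foxp3 in mature Treg cells.

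The 8 genes lie on different chromosomes except for Runx3 and Bach2, which share chromosome 4. In the NCBIM37 assembly (mm9) with the GENCODE M1 annotation, Foxp3 spans chrX:7156802-7172369 on the plus strand, Runx3 spans chr4:134676567-134733905 on the plus strand and Foxo3 spans chr10:41901647-41996561 on the minus strand. Exons of Foxp3 are touched by 4930524L23Rik on the same strand and by Ccdc22 and Ppp1r3f on the other. Reads had been counted by strand, so only the first of these could share reads with Foxp3. Upstream sequence is shown for Foxp3, because its level was the reference for the sort, for both start sites of Runx3, because Runx3 was the member that rose in mLN DKO Treg cells, and for Foxo3, because it was the member that fell there. The 250 bases upstream of each start were taken from RefSeq promoter entries of the GRCm38.p6 build and placed in NCBIM37 by exact match. They are printed 5′ to 3′ on the strand of the gene, and capitals mark the Runx motif TGTGGT or its reverse complement ACCACA.
Foxp3 start 1, chrX:7156552-7156801, plus strand: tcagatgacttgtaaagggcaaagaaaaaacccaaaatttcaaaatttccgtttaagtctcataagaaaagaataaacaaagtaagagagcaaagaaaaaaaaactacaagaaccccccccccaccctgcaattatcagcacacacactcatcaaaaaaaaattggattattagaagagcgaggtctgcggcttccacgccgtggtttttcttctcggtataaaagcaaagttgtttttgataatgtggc
Runx3 start 1, chr4:134676310-134676559, plus strand: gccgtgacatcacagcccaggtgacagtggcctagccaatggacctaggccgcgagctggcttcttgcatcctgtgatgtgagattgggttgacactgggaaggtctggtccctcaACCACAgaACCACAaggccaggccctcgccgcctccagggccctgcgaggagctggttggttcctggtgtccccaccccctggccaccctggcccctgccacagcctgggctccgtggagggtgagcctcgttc
Runx3 start 2, chr4:134708210-134708459, plus strand: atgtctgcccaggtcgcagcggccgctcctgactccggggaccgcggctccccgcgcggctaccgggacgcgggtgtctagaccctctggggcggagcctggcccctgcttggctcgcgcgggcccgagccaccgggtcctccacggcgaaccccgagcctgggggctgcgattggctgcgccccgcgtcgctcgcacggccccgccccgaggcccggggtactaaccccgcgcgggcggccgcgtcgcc
Foxo3 start 1, chr10:41996502-41996751, minus strand: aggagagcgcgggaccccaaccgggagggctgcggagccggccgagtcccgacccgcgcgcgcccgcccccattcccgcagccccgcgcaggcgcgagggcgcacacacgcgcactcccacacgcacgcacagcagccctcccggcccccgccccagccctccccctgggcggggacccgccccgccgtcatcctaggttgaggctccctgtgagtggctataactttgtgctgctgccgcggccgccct
The sequence before the first Runx3 start held 2 Runx motifs separated by a pair of bases and 8 CpG dinucleotides, counting the CpG over the 300-base entry (250 bases before to 50 after the start). The entry for the second Runx3 start held no Runx motif and 45 CpG, and the Foxo3 entry held 35 CpG. RefSeq listed 15 promoter entries for the 8 genes among 32851 in all. Runx motifs were found in 2 of the 15, the first Runx3 entry and the first Runx1 entry (2 motifs after the start, at +28 and +36). Of all promoter entries, 16.8% held at least 1 Runx motif and 1.81% held 2 or more. The forkhead motif TGTTTAC, which reads GTAAACA on the other strand, was in 0 of the 15 and in 3.65% of all entries, while for AP-1 the motif TGACTCA, with TGAGTCA as its other strand, was in 0 of the 15 and in 5.20% of all entries. A match describes letters in this window and is no measure of binding.

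All libraries were deep, with 9998478 to 15449158 assigned reads in mLNs and 13525932 to 15253141 in spleen and pLNs, and all 9 T cell genes checked (Cd3e, Cd4, Lck and others) were detected in every library. The 4 WT groups were tight, with Pearson's r of log2 CPM between libraries of a group of 0.993 to 0.994, while DKO libraries of a group were less alike (0.937 to 0.975). In mLNs, DKO Foxp3- replicate 2 stood apart from the rest of its group (mean r 0.942). In spleen and pLNs the 2 DKO Foxp3- libraries were unlike each other, and replicate 1 held more RNA of activated T cells (3007 against 972 CPM, counts per unit of library size after TMM scaling, summed over 8 genes) and less of naive T cells (2667 against 5926 CPM over 10 genes). Reads of Tet2 and Tet3 cover all exons and so do not check the deletion. Tet2 lay at 10.4 to 10.8 CPM in WT against 7.69 to 12.8 CPM in DKO Treg cells of mLNs. The study calls the replicates biological, and for spleen and pLNs it took both cell types of the DKO groups from a pair of littermates. The labels do not tie a library to a mouse.

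Foxp3 itself did not differ by the test between WT and DKO Treg cells of mLNs. It lay at 310, 299.5 and 326 CPM in the 3 WT libraries and at 277, 308 and 329 CPM in the 3 DKO libraries. The groups overlapped, and the log2 fold change of DKO over WT was -0.03 ± 0.24 (SE), with an adjusted p of 0.979 by edgeR's quasi-likelihood test with Benjamini-Hochberg adjustment over all genes, the test used for every adjusted p below unless another is named. Treg cells of spleen and pLNs held Foxp3 at 165 and 152.5 CPM in WT against 419 and 235 CPM in DKO Treg cells. Both DKO libraries were above both WT libraries, replicate 1 by far the most. The log2 fold change was 1.04 ± 0.25 (2.06-fold) and did not pass (adjusted p = 0.0607). It passed in DESeq2 (adjusted p = 0.0191) and in edgeR on these 2 groups alone (0.0224), and it was 0.56 without DKO replicate 1 (not called) and 1.4 without DKO replicate 2 (adjusted p = 0.0075, called). Each time 1 of a pair of libraries was left out in spleen and pLNs, here and below, the lone library of that group was assumed to vary like the other groups, which supply the spread, so such a call describes that library. Here, as in any sorted bulk sample, fewer cells of a kind and less RNA per cell cannot be told apart.

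In Foxp3- cells, Foxp3 reads were near the floor of detection in both genotypes. They amounted to 14 to 20 reads per library in WT and 3 to 31 in DKO mLNs, which is 0.466% of the Treg level in WT and 0.469% in DKO. The 3 reads of DKO Foxp3- replicate 2 (0.211 CPM) were at the limit that a count of 0 allows, while replicate 1 had the most (2.75 CPM). The corresponding shares in spleen and pLNs were 0.393% in WT and 0.152% in DKO, from 7 to 9 and 4 to 10 reads. Residual Foxp3 RNA was not called between the genotypes, and the DKO libraries of mLNs were spread more widely than the WT ones.

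**Figure D1:**
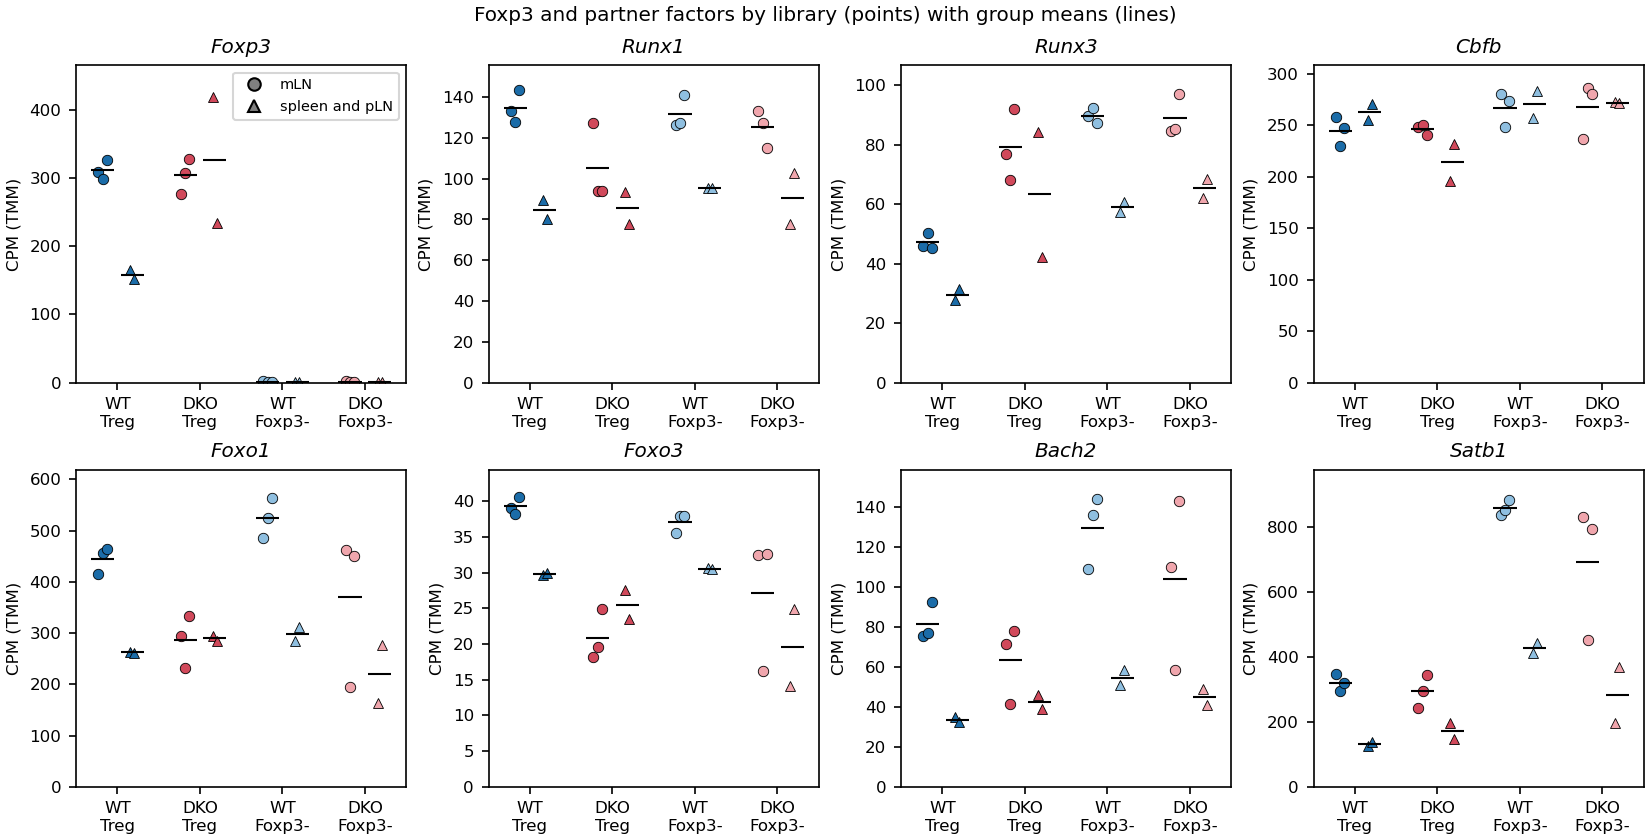
Expression of each of the 8 genes in CPM (y axis, linear, from 0) in every library, for WT and DKO Treg cells and WT and DKO Foxp3- cells of mLNs and of spleen and pLNs. Points are libraries and bars are group means. Runx3 points of mLN DKO Treg cells (68.2 to 92.0 CPM) lie above all WT Treg points (45.3 to 50.4 CPM), and Foxo3 points lie below (18.2 to 24.9 against 38.3 to 40.6 CPM).

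Runx3 rose in DKO Treg cells of mLNs and was the only one of the 8 genes called up there, against 8.50% of all genes called up (a call needed both an adjusted p up to 0.05 and a 1.5-fold change or more). WT Treg cells held 46.0, 50.4 and 45.3 CPM and DKO Treg cells 77.0, 68.2 and 92.0 CPM. Every DKO library was above every WT library. The log2 fold change was 0.74 ± 0.11 (1.67-fold, adjusted p = 0.000580). Runx3 is best known as the factor that silences Cd4 in CD8+ T cells and supports type 1 and cytotoxic genes.

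Runx3 was not called between the genotypes in Foxp3- cells of mLNs, where its groups overlapped. It lay at 89.7, 92.3 and 87.5 CPM in WT against 84.6, 85.4 and 97.2 CPM in DKO, a log2 fold change of -0.01. WT Treg cells thus held less Runx3 than WT Foxp3- cells (log2 fold change -0.93 ± 0.11, adjusted p = 8.46e-05), and in DKO mice this difference was -0.17 ± 0.10 (adjusted p = 0.292), with overlapping libraries. DKO Treg cells lay close to the level of Foxp3- cells. The test of genotype by cell type, which asks whether the DKO effect differs between Treg and Foxp3- cells, gave 0.75 ± 0.15 on the log2 scale for Runx3, with an unadjusted p of 0.00019 and an adjusted p of 0.0575, so it was not called. None of the 8 genes was called in it, against 0.262% of all genes. Because same-numbered Treg and Foxp3- libraries of mLNs varied together, a fit with the replicate number as a block within genotype was also made, and there the Runx3 term was called (adjusted p = 0.0258). It was called in DESeq2 as well (adjusted p = 0.000774), and without DKO Foxp3- replicate 2 (0.69, adjusted p = 0.0231), without replicate 1 or 3 of that group (0.69 and 0.82) or without DKO Treg replicate 2 (0.85). These were 4 of the 12 fits with single libraries left out, and in the other 8, where the adjusted p reached 0.167, and with DESeq2 size factors or a robust prior it was not called.

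Runx3 in spleen and pLNs was again lowest in WT Treg cells, with more spread in DKO Treg cells. WT Treg cells held 27.8 and 31.4 CPM, DKO Treg cells 84.3 and 42.3 CPM, WT Foxp3- cells 57.5 and 60.9 CPM and DKO Foxp3- cells 62.2 and 68.5 CPM. Both DKO Treg libraries were above both WT Treg libraries, and replicate 1 was well above replicate 2. Replicate 1 lay above every Foxp3- library and replicate 2 under every one. The log2 fold change of DKO Treg over DKO Foxp3- cells, -0.05 ± 0.25 (adjusted p = 0.996), thus averages unlike libraries. The log2 fold change between the Treg groups was 1.10 ± 0.25 (2.14-fold, adjusted p = 0.0525, not called), and it was 0.51 without DKO replicate 1 (not called) and 1.5 with replicate 1 as the only DKO library (adjusted p = 0.0022, called). DESeq2 called it (adjusted p = 0.0137), as did edgeR on these 2 groups alone (0.0320). WT Treg cells held less Runx3 than WT Foxp3- cells (log2 fold change -1.0 ± 0.25, adjusted p = 0.0484), a call that was lost when any one of the 4 WT libraries was left out and with the replicate block within genotype (-1.0, adjusted p = 0.163).

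Runx1 was lower in mLN DKO Treg cells by a margin under the fold limit. WT Treg cells held 133, 128 and 143.5 CPM and DKO Treg cells 127, 94.1 and 93.7 CPM. The groups did not overlap in CPM, although DKO replicate 1 lay just under the lowest WT library. In the authors' TPM (explained below) that library was the highest, at 36.9 against 31.8 to 36.5 in WT. The log2 fold change of -0.36 ± 0.11 had an adjusted p of 0.0423 and stayed under the 1.5-fold limit. With single Treg libraries left out, that adjusted p ranged from 0.00346 to 0.151. Runx1 in spleen and pLNs was 89.3 and 80.4 CPM in WT against 93.4 and 77.6 CPM in DKO Treg cells, and the groups overlapped (log2 fold change 0.01). Runx1, a regulator of blood stem cells and of T cell development, was not called between Treg and Foxp3- cells in either genotype or tissue.

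Cbfb, the shared partner of the Runx factors, varied little in mLNs. It stayed between 230 and 287 CPM in all 12 mLN libraries and between 196 and 284 CPM in all 8 libraries of spleen and pLNs. None of its comparisons was called, and its log2 fold change between DKO and WT Treg cells was 0.01 ± 0.09 in mLNs and -0.30 ± 0.16 in spleen and pLNs (adjusted p = 0.998 and 0.316). The 2 DKO Treg libraries of spleen and pLNs (196 and 232 CPM) were both under the 2 WT ones (255 and 271 CPM).

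Levels of different genes can be compared only per transcript length, for which the TPM values of the authors (transcripts scaled for length and library) were used. Of the summed TPM of Runx1, Runx2 and Runx3, Runx3 made up 36.5, 39.9 and 35.0% in WT Treg cells of mLNs and 52.1, 54.6 and 62.5% in DKO Treg cells. The shares did not overlap and differed by 19.3 percentage points (37.1% ± 2.50 against 56.4% ± 5.44, SD, n = 3 each). The exact two-sided permutation test gave p = 0.1, the smallest that 3 against 3 libraries allow. Runx1 went from 55.8% to 39.6% of the sum, so that Runx1 led in WT Treg cells and Runx3 in DKO Treg cells.

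Foxp3- cells had the Runx3-rich makeup in both genotypes, at 55.8% ± 2.03 in WT and 56.0% ± 3.19 in DKO mLNs (SD, n = 3 each, exact permutation p = 0.9). Runx3 in spleen and pLNs made up 33.8 and 39.0% of the Runx sum in WT Treg cells and 59.3 and 48.4% in DKO Treg cells, a difference of 17.4 points for which the smallest possible exact permutation p, 0.333, was reached. WT Foxp3- cells stood at 51.3 and 52.6% and DKO Foxp3- cells at 58.3 and 53.5%. In both tissues every DKO Treg library was thus above every WT Treg library. Summed Runx TPM in mLN Treg cells was 59.7 ± 2.57 in WT and 74.3 ± 8.97 in DKO (SD, n = 3 each, exact permutation p = 0.1), and Cbfb per unit of that sum was 2.57 and 2.37 (exact permutation p = 0.3, n = 3 each). The sum, unlike the shares, depends on the TPM scale, which differed from that of CPM. In WT and DKO, Cbfb had means of 153 and 174 TPM but 245 and 247 CPM. Foxp3 had 145 and 160 TPM but 312 and 305 CPM. The higher sum is thus not read as more Runx RNA.

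**Figure D2:**
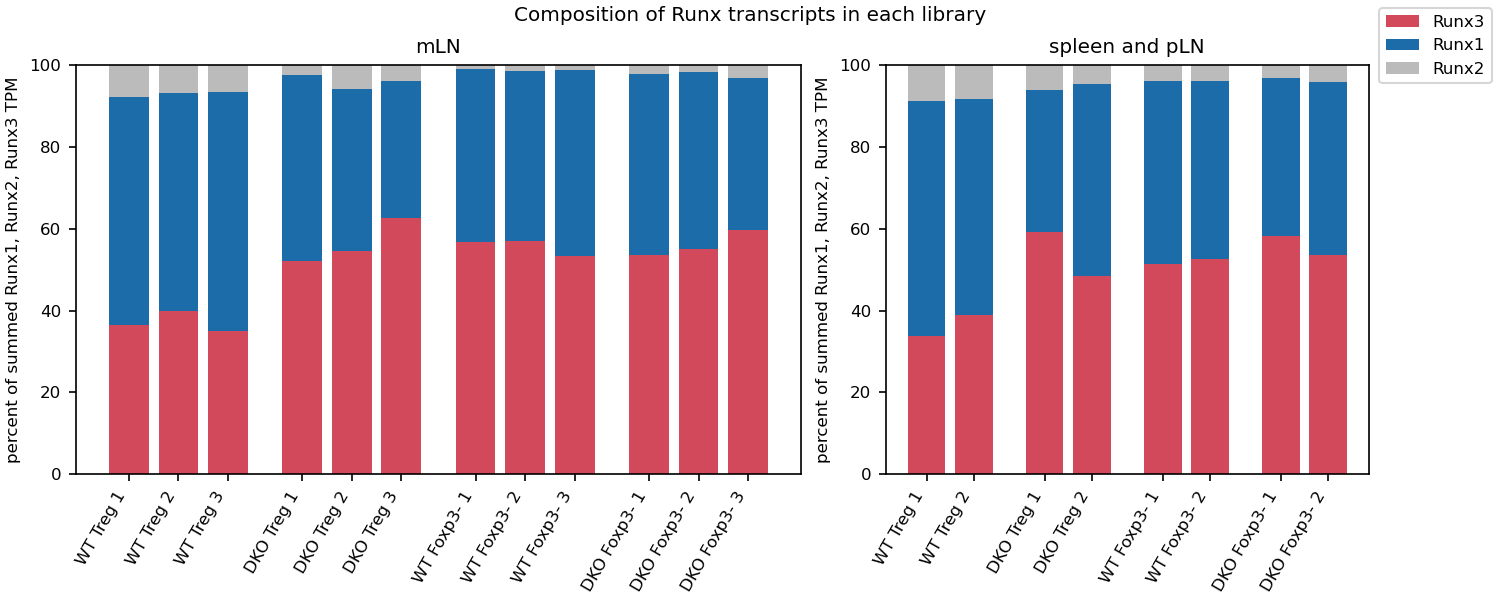
Shares of Runx1, Runx2 and Runx3 in the summed TPM of Runx1, Runx2 and Runx3 (percent) in each library, by group and tissue. Runx3 lies between 35.0 and 39.9% in mLN WT Treg cells and between 52.1 and 62.5% in mLN DKO Treg cells, around the mLN Foxp3- libraries (53.4 to 59.6%).

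Foxo3 fell in DKO Treg cells of mLNs and was the only one of the 8 genes called down there, against 3.43% of all genes. It went from 39.0, 38.3 and 40.6 CPM in WT to 18.2, 19.5 and 24.9 CPM in DKO. All DKO libraries were well under all WT libraries. The log2 fold change was -0.91 ± 0.21 (0.531-fold, adjusted p = 0.00883). In Foxp3- cells of mLNs, Foxo3 lay at 35.6, 37.9 and 37.9 CPM in WT against 32.6, 16.3 and 32.6 CPM in DKO (log2 fold change -0.46 ± 0.21, adjusted p = 0.254). Most of that difference was in DKO replicate 2, and without it the genotype by cell type term of Foxo3 was -0.76 (adjusted p = 0.0229, called). With every library that term was not called.

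Foxo3 in spleen and pLNs was 29.7 and 30.0 CPM in WT against 27.5 and 23.5 CPM in DKO Treg cells. The DKO libraries were lower by a small margin (log2 fold change -0.23, adjusted p = 0.645). This order depends on the scaling, as the authors' TPM values overlapped (15.2 and 15.1 in WT, 19.9 and 13.2 in DKO). Among Foxp3- cells of these organs it was 30.6 and 30.5 CPM in WT against 14.1 and 25 CPM in DKO (log2 fold change -0.65 ± 0.23, adjusted p = 0.242), with the low value in DKO replicate 1, the library rich in RNA of activated cells. It was -0.30 without DKO replicate 1 (not called) and -1.11 with replicate 1 as the only DKO library (called).

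Foxo1, the more abundant FOXO factor, was also lower in mLN DKO Treg cells but more variable. It lay at 416, 456 and 464 CPM in WT against 295, 231 and 334 CPM in DKO. The groups did not overlap, yet the log2 fold change of -0.64 ± 0.24 did not pass (adjusted p = 0.0853). It passed in DESeq2 (adjusted p = 0.0489), in edgeR on these 2 groups alone (0.00402) and without DKO Foxp3- replicate 2 (0.000406), a library that is outside the contrast and entered through the shared fit. In Foxp3- cells of mLNs Foxo1 was 485, 524 and 564 CPM in WT against 463, 195 and 450 CPM in DKO (log2 fold change -0.51 ± 0.24, adjusted p = 0.286), with replicate 2 far under the other two.

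In spleen and pLNs, Foxo1 was not lower in DKO Treg cells. The WT libraries held 264 and 262 CPM and the DKO libraries 295 and 284 CPM (log2 fold change 0.14 ± 0.21, adjusted p = 0.747). Foxp3- cells held 284 and 313 CPM in WT against 163 and 277 CPM in DKO (log2 fold change -0.44 ± 0.22, adjusted p = 0.428), again with the lowest value in DKO replicate 1. This was -0.11 without DKO replicate 1 (not called) and -0.87 with replicate 1 as the only DKO library (called). Likewise, the difference between DKO Treg and Foxp3- cells was 0.061 for Foxo1 and 0.030 for Foxo3 without DKO Foxp3- replicate 1 (not called), and 0.83 and 0.85 with it as the only library of its group (called).

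In mLNs, the DKO Treg libraries and DKO Foxp3- replicate 2 were the lowest of their cell type in both FOXO factors and also in RNA of naive cells. The naive list (10 genes) summed to 4462, 3715 and 4179 CPM in WT against 2514, 2123 and 3026 CPM in DKO Treg cells of mLNs, and to 9239, 5005 and 7666 CPM in DKO Foxp3- cells, where replicate 2 was lowest, as it was for both FOXO factors. The activated list (8 genes) went from 1542 to 1609 CPM in WT Treg cells to 2330 to 2963 CPM in DKO Treg cells, and the proliferation list (10 genes) from 147 to 233 CPM to 438 to 636 CPM. All 10 proliferation genes and 3 of 8 activated genes were called up in mLN DKO Treg cells, against 8.50% of all genes, and 4 of 10 naive genes were called down, against 3.43%. With single Treg libraries left out, the 10 proliferation calls stood, while 1 to 2 activated and 1 to 4 naive genes were called. In Treg cells of spleen and pLNs the naive sum was 3277 and 3582 CPM in WT against 2183 and 2723 CPM in DKO. By CPM, both DKO libraries there were lower in Foxo3 and higher in Foxo1 than both WT libraries, and neither gene was called. The part of these shifts in the FOXO and Runx3 results was not tested. Across the 12 mLN libraries Foxo1 and Foxo3 had r = 0.93 (log2 CPM), and r = 0.89 over the 8 libraries of spleen and pLNs, as a description of libraries that share mice, depth and state.

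Markers of CD8+ T and NK cells, which express Runx3, were checked beside it. The list of 8 genes summed to 26.2 to 31.9 CPM in WT against 79.3 to 167 CPM in DKO Treg cells of mLNs, and to 26.5 to 30.1 and 103 to 132 CPM in spleen and pLNs. In mLNs 1 of the 8 was called up and 1 down, with a median log2 fold change of 0.53, and in spleen and pLNs 2 were called up (Klrb1c and Ncr1) and 0 down, with a median of 1.6. Klrb1c, an NK cell receptor, went from a mean of 6.54 to 112 CPM in mLN Treg cells (called), and Cd8b1, a chain of the CD8 coreceptor, fell from 18.6 to 3.41 CPM. Mean levels of the others in WT and DKO were 0.253 and 1.12 CPM for Klrd1 (log2 fold change 2.07, adjusted p = 0.0559), 0.0656 and 0.409 CPM for Ncr1, 0.0822 and 0.132 CPM for Klrk1, 3.67 and 5.31 CPM for Eomes, 0.374 and 0.18 CPM for Cd8a and 0.164 and 0 CPM for Klre1. Myeloid genes (12 measured, 3 called up) summed to 2.95 to 5.26 CPM in WT against 15.1 to 27.0 CPM in DKO Treg cells of mLNs, and 10 B cell genes summed to 37.8 to 46.9 CPM in WT against 32.3 to 78.7 CPM in DKO Treg cells of mLNs. Of these B cell genes 3 were called up (Pax5, Blk and Ebf1) and 2 down (median 2.70). Plasma cell genes (6 measured, 1 called up) summed to 224 to 247 CPM in WT against 236 to 752 CPM in DKO Treg cells of mLNs, and to 118 to 128 CPM in WT against 145 to 841 CPM in DKO Foxp3- cells. They were Sdc1, Jchain, Xbp1, Mzb1, Tnfrsf17 and Irf4, and Irf4 is also in the BACH and AP-1 list below. Sums of this list, here and in spleen and pLNs, thus do not measure plasma cell RNA alone. The highest sum was that of replicate 2 in both DKO groups, and DKO Foxp3- replicate 2 was also the mLN library with the lowest Foxo1 and Foxo3. In spleen and pLNs, DKO Foxp3- replicate 1, the library lowest in Foxo1 and Foxo3 there, held 717 CPM of plasma cell genes and 40.6 CPM of B cell genes, against 143 to 163 CPM and 8.96 to 9.24 CPM in WT Foxp3- cells. Myeloid genes there (15 measured, 3 called up) summed to 3.54 and 5.15 CPM in WT against 40.0 and 14.1 CPM in DKO Treg cells. The part of these markers in the Runx3 and FOXO results was not tested.

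**Figure D3:**
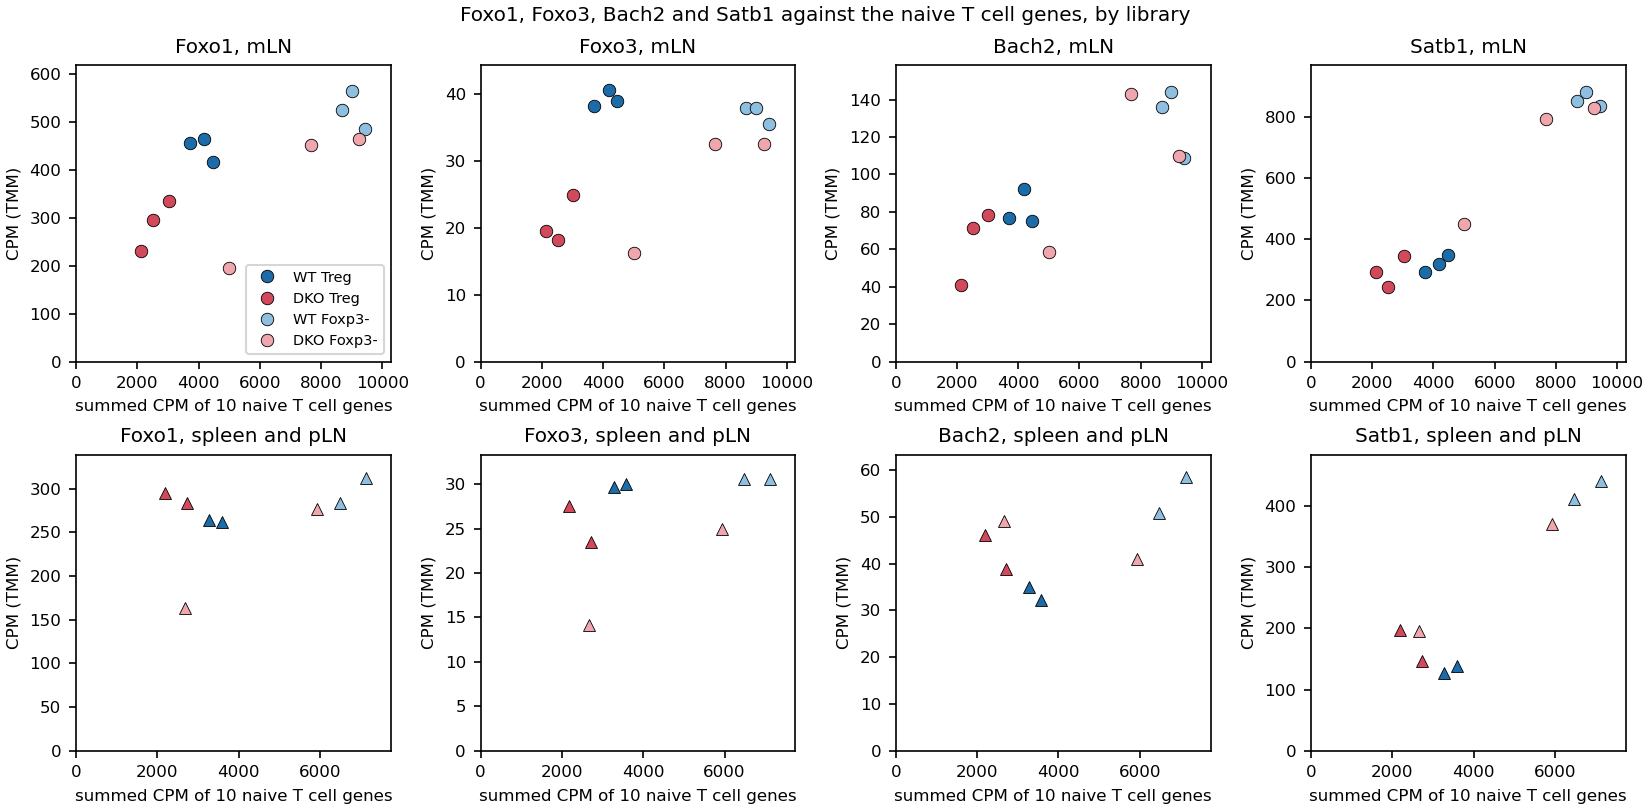
CPM of Foxo1, Foxo3, Bach2 and Satb1 (y axes) against the summed CPM of 10 naive T cell genes (x axis) in each library of mLNs and of spleen and pLNs, colored by group. The libraries with the lowest Foxo1 and Foxo3 among Foxp3- cells are mLN DKO replicate 2 (195 and 16.3 CPM) and spleen and pLN DKO replicate 1 (163 and 14.1 CPM), which also have the lowest naive sums of their groups (5005 and 2667 CPM).

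Bach2 did not differ with genotype by the test in any cell type or tissue. In mLNs it lay at 75.3, 76.9 and 92.3 CPM in WT against 71.3, 41.2 and 78.2 CPM in DKO Treg cells, and at 109, 136 and 144 CPM in WT against 110, 58.5 and 143 CPM in DKO Foxp3- cells. Replicate 2 was the low library in both DKO groups. The log2 fold changes were -0.36 ± 0.28 and -0.32 (adjusted p = 0.411 and 0.588). Spleen and pLNs gave 35.0 and 32.3 CPM in WT against 46.1 and 38.8 CPM in DKO Treg cells, where both DKO libraries were the higher ones (log2 fold change 0.34 ± 0.17, adjusted p = 0.280).

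Between cell types, Bach2 was lower in Treg cells. In WT mLNs the 3 Treg libraries were all under the 3 Foxp3- libraries (log2 fold change -0.67 ± 0.28, adjusted p = 0.132), and the difference was called with the replicate block (-0.67, adjusted p = 0.00120) and without DKO Foxp3- replicate 2 (adjusted p = 0.0153). In DKO mLNs the libraries overlapped, and the fit without the block gave -0.71 ± 0.28 (adjusted p = 0.10, not called), while the fit with it gave -0.67 (adjusted p = 0.00115, called). In WT spleen and pLNs Foxp3- cells held 50.7 and 58.4 CPM, and Treg cells were lower (log2 fold change -0.70 ± 0.17, adjusted p = 0.0363), a call lost without any one of the 4 WT libraries and with the replicate block (-0.69, adjusted p = 0.0642). In DKO spleen and pLNs the difference was -0.09, with Foxp3- libraries at 49.2 and 41.0 CPM.

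Satb1 had the largest difference between cell types after Foxp3. WT Treg cells of mLNs held 348, 294 and 319 CPM and WT Foxp3- cells 837, 853 and 883 CPM. The log2 fold change was -1.42 ± 0.19 (adjusted p = 0.000284). DKO Treg cells held 243, 294 and 345 CPM and DKO Foxp3- cells 831, 450 and 794 CPM, and the difference remained past the test (-1.23 ± 0.19, adjusted p = 0.000689). Between WT and DKO Treg cells Satb1 was not called (log2 fold change -0.12 ± 0.19, adjusted p = 0.687, overlapping groups).

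Satb1 in spleen and pLNs was 127 and 138 CPM in WT Treg cells against 411 and 441 CPM in WT Foxp3- cells (log2 fold change -1.69 ± 0.26, adjusted p = 0.00282). The call was lost without WT Treg replicate 1 or 2 or without WT Foxp3- replicate 2, which left the value between -1.75 and -1.63, and with the replicate block (-1.69, adjusted p = 0.0666). DKO Treg cells held 197 and 146 CPM and DKO Foxp3- cells 196 and 370.0 CPM (-0.72 ± 0.25, adjusted p = 0.184). Satb1 was level between the libraries of DKO replicate 1. The difference was -1.11 without DKO Foxp3- replicate 1 (called) and -0.19 with it as the only library of its group (not called). Between WT and DKO Foxp3- cells the log2 fold change of Satb1 was -0.59 ± 0.25 (adjusted p = 0.346). It was -0.21 without DKO replicate 1 (not called) and -1.12 with replicate 1 as the only DKO library (called).

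Counts of the 8 genes between genotypes are read beside the shares of all genes. In mLN Treg cells the WT and DKO libraries did not overlap for 4 of the 8 genes (Runx1, Runx3, Foxo1 and Foxo3), against 40.5% of all genes, and 4 had an unadjusted p under 0.05 in edgeR, against 32.4%. In mLN Foxp3- cells 0 of 8 were called, against 3.12% of all genes called up and 0.304% called down, and 3 of 8 did not overlap (Foxo1, Foxo3 and Satb1, each lower in DKO), against 20.9%. At an unadjusted p under 0.05, 1 of the 8 passed there in edgeR, against 18.7% of all genes. In spleen and pLNs 0 of 8 were called in Treg cells, against 1.14% of all genes up and 0.605% down, with 2 at an unadjusted p under 0.05 (20.4% of all genes), while 7 of 8 did not overlap, against 54.2%. In Foxp3- cells of these organs 0 of 8 were called, against 0.770% up and 0.0489% down, with 2 at an unadjusted p under 0.05 (12.9% of all genes), and 5 of 8 did not overlap, against 41.9%. None was called for genotype by cell type in spleen and pLNs either, against 0.00611% of all genes, with 3 at an unadjusted p under 0.05 (5.53% of all genes). For Runx3 that term was 1.36 without DKO Treg replicate 2 (called) and 0.36 without replicate 1 (not called). For Foxo1 and Satb1 it was 1.01 and 1.49 without DKO Foxp3- replicate 2 (called) and 0.25 and 0.58 without replicate 1 (not called). With 2 libraries per group, groups that do not overlap are common.

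Counts between cell types leave out Foxp3, whose difference was set by the gate. In this count 2 of the 7 partners were called lower in WT Treg than in WT Foxp3- cells of mLNs (Runx3 and Satb1), against 3.14% of all genes called lower, and 4 of 7 did not overlap and were lower (Runx3, Foxo1, Bach2 and Satb1), against 19.2%. In DKO mLNs 1 of 7 (Satb1) was called lower, against 3.49%, and it was the only one that did not overlap and was lower, against 12.3%. Without DKO Foxp3- replicate 2, Foxo1 (-0.70), Foxo3 (-0.68), Bach2 (-1.03) and Satb1 (-1.5) were called lower in DKO Treg cells, 4 of 7 against 6.32% of all genes in that fit. In WT spleen and pLNs 3 of 7 were called lower (Runx3, Bach2 and Satb1), against 1.52%, and 0 of 7 with the replicate block. There 6 of 7, all but Cbfb, did not overlap and were lower, against 27.2%. In DKO spleen and pLNs 0 of 7 were called, against 1.61% called lower, and only Cbfb did not overlap and was lower, against 15.3%.

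**Figure D4:**
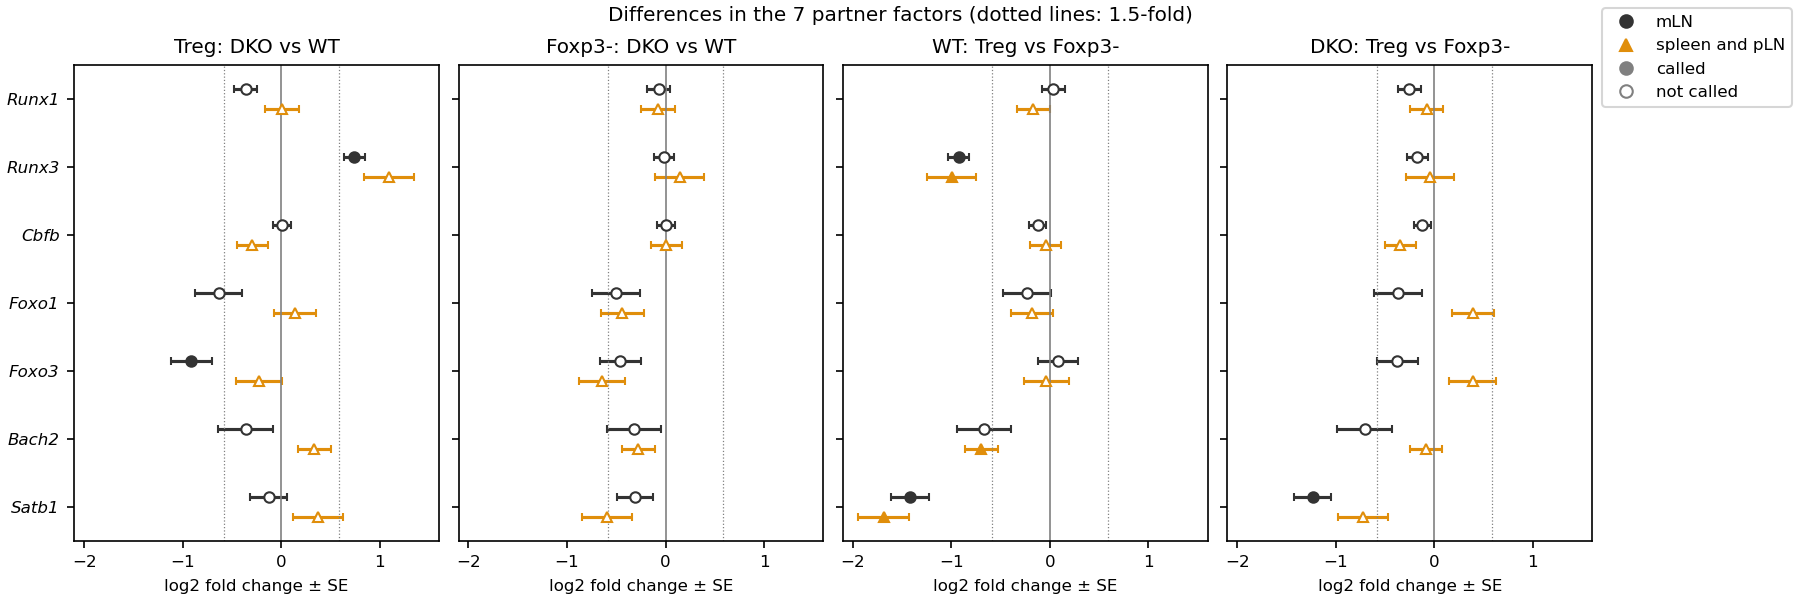
Log2 fold changes with their standard errors (x axis) of the 7 partner factors in 4 comparisons, DKO against WT in Treg and in Foxp3- cells and Treg against Foxp3- cells in WT and in DKO mice. Filled symbols passed an adjusted p of 0.05 and a 1.5-fold change by edgeR, open symbols did not, circles are mLNs and triangles spleen and pLNs. Runx3 and Foxo3 are filled in mLN Treg cells (0.74 and -0.91), and Satb1 is filled in 3 of its 4 comparisons between cell types.

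The order of the 8 genes by TPM placed Cbfb, Foxo1 and Foxp3 together at the top in WT Treg cells of mLNs, at 153, 147 and 145 TPM with overlapping libraries. Satb1 followed at 86.0 TPM, then Runx1 at 33.4, Foxo3 at 24.8, Runx3 at 22.2 and Bach2 at 17.5 TPM. In DKO Treg cells the same scale gave Cbfb 174, Foxp3 159.6, Foxo1 107, Satb1 89.0, Runx3 41.9, Runx1 29.5, Bach2 15.5 and Foxo3 14.9 TPM. Runx3 had moved above Runx1, with overlapping libraries, and Foxo3 had moved to the end beside Bach2. In WT Foxp3- cells Satb1 led at 212 TPM and Foxp3 was last at 0.620 TPM.

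For spleen and pLNs the WT Treg order by TPM was Cbfb (132), Foxo1 (69.4), Foxp3 (59.2), Satb1 (28.6), Runx1 (16.9), Foxo3 (15.1), Runx3 (11.1) and Bach2 (5.81). By group means, DKO Treg cells had Foxp3 first at 160.1 TPM, and Runx3 (31.5 TPM) again above Runx1 (21.8 TPM). The libraries overlapped for Foxp3 with Cbfb and for Runx3 with Runx1. Foxp3 led in DKO replicate 1 (223 TPM against 141 for Cbfb), and Cbfb led in replicate 2 (130 TPM against 97.4 for Foxp3). Runx3 and Runx1 were at 45.2 and 26.5 TPM in replicate 1 and at 17.7 and 17.2 TPM in replicate 2. The 2 tables were normalized apart, so TPM levels are not compared between tissues.

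Genes of the pathways around these factors were counted from lists set by their known function. Values in parentheses from here on are the log2 fold change and the adjusted p. Among 8 Runx complex and corepressor genes only Runx3 was called in mLN DKO Treg cells (median log2 fold change -0.25, against 0.00 for all genes). The shares of all genes beside the counts of each list there are the 8.50% called up and 3.43% called down. Foxo3 was the only one of 10 measured FOXO factors and regulators that was called, and the list's median was -0.36. Akt1, a kinase that keeps FOXO factors out of the nucleus, had a log2 fold change of 0.40 (adjusted p = 0.0202), under the 1.5-fold limit.

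FOXO target genes of resting T cells fell in part. Of 10, 3 were called down and 0 up in mLN DKO Treg cells (median -0.47), against 3.43% and 8.50% of all genes, and 1 to 3 were called down with single Treg libraries left out. Ccr7, the receptor that takes T cells into lymph nodes, had a log2 fold change of -0.94 ± 0.24 (adjusted p = 0.0171). S1pr1, the receptor for exit from them, had -0.75 ± 0.20 (0.0206). Klf2, the factor that drives S1pr1, had -0.74 ± 0.14 (0.00353). These genes belong to the naive program whose summed level also fell. Il7r, the receptor for interleukin 7, did not pass (0.09, adjusted p = 0.868).

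The list of BACH and AP-1 factors holds 15 genes, among them Irf4 and Prdm1, which are neither. Of these, 3 were called up, against 8.50% of all genes, and 2 down, against 3.43%, in mLN DKO Treg cells (median -0.07). Fosl2, an AP-1 subunit, had a log2 fold change of 1.47 (adjusted p = 0.00121) and Batf, a partner of Jun proteins in effector Treg cells, had 0.98 (0.00207). Prdm1, which encodes Blimp1 and is a known target of Bach2, had -1.33 (0.00920), and Bach1, the relative of Bach2, had -0.86 (0.0302). None of the 6 SATB and chromatin loop factors was called (median 0.02).

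Among 40 other factors that bind Foxp3 or its gene, 2 were called up and 5 down in mLN DKO Treg cells (median -0.03). The nuclear receptor Nr4a2 rose (1.85, adjusted p = 0.00244), as did Hif1a (1.28, 0.0119), the oxygen-regulated subunit of HIF. The Foxp3 corepressor partner Ikzf4 (Eos) fell (-1.42, 0.000397), as did Bcl11b (-1.08, 0.00732). Of 15 genes known to be activated by Foxp3, 7 were called down, against 3.43% of all genes, and 1 up, against 8.50% (median -0.47), with Nrp1 at -1.68 (0.000166), Entpd1 at -1.63 (0.0129) and Itgae at -1.59 (0.0177), while Icos was called up (1.21, 0.0409). With single Treg libraries left out, 6 to 7 genes were called down and the call of Icos was lost each time. Of 8 genes known to be repressed by Foxp3, 1 was called, and it was called down (Igfbp4, -1.86, 0.0164), with a list median of -0.52. Foxp3 itself did not differ between these groups.

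In Foxp3- cells of DKO mLNs, 7 of the 15 genes activated by Foxp3 were called up, against 3.12% of all genes, and 0 down (median 0.93), among them Icos (2.04, adjusted p = 0.0153), Tnfrsf4 (1.99, 0.00877), Ctla4 (1.89, 0.00979) and Nt5e (1.36, 0.0345). Several of these genes are also induced in activated CD4+ T cells. The activated list, which itself holds Icos and Tnfrsf4, summed to 481 to 554 CPM in WT against 638 to 2143 CPM in DKO Foxp3- cells. These calls depended on the fit. In edgeR on the 2 groups alone 0 of the 15 were called and 1 gene in all was called up, against 524 in the fit of all groups. Without WT Foxp3- replicate 1, 2 or 3 the list had 0, 0 and 1 calls, and 60, 53 and 103 genes in all were called up. Without DKO Foxp3- replicate 1, 2 or 3, 1201, 371 and 502 genes in all were called up. The list summed to 710 to 807 CPM in WT against 914 to 2957 CPM in DKO libraries. Nrp1, one of the genes called up (0.92), was 0.57 without DKO replicate 2, the library that stood apart, which is under the 1.5-fold limit. In Foxp3- cells of spleen and pLNs 0 of 14 measured genes of the list were called up and 1 down (Lrrc32), against 0.770% and 0.0489% of all genes. The call of Lrrc32 was lost without either WT library, where 0 genes in all were called down. The test of genotype by cell type called 1 of the 15, Nrp1. Foxp3 reads in these libraries were those given above. Of the 40 other factors 3 were called up and 0 down, Hif1a (1.44), Irf4 (0.95, adjusted p = 0.0403) and Ikzf2 (0.93), against 3.12% of all genes. Irf4 was also the only 1 of the 15 genes of the BACH and AP-1 list called, and the Runx, FOXO, FOXO target and SATB lists had 0 calls.

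The Runx, FOXO, FOXO target, BACH and AP-1, SATB and other-factor lists had 0 calls in DKO Treg cells of spleen and pLNs. Nrp1 was the only call among the 14 measured genes activated by Foxp3 (-1.24, adjusted p = 0.0424), against 0.605% of all genes called down. That call was lost with the replicate block (adjusted p = 0.0698), without either WT library or without DKO replicate 1 (adjusted p = 0.347 to 0.514), where the 99 genes called down in all became 1, 1 and 5, and without DKO replicate 2 they became 572. Prdm1 and Bach1 had -1.01 and -0.91 there (adjusted p = 0.114 and 0.0991), and Fosl2 had 1.09 (0.201). In WT mice the 2 Foxp3 lists separated the sorted cells, with 15 of 15 activated genes called higher, against 6.91% of all genes, and 7 of 8 repressed genes called lower in Treg cells of mLNs, against 3.14%. In DKO mLNs these counts were 13 of 15 and 8 of 8, against 7.75% and 3.49%. In WT spleen and pLNs they were 12 of 14 and 8 of 8, against 2.48% and 1.52%. In DKO spleen and pLNs they were 7 of 14 and 6 of 8, against 2.16% and 1.61%. The medians there were 2.70 and -1.96 in WT and 1.43 and -1.98 in DKO.

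Genes whose pattern was most like that of a member were ranked by the smaller of Pearson's r (log2 CPM) over the 12 mLN libraries and over the 8 of spleen and pLNs, among 7488 genes. For Foxp3 they were Lrrc32 (0.977), Il2ra (0.976) and Tnfrsf1b (0.967), and for Satb1 Dgka (0.971), Aqr (0.961) and App (0.960). Runx3 was followed by Ap3d1 (0.949), E130012A19Rik (0.919) and Prmt5 (0.917). The closest to Foxo1 were Pacs1 (0.951), Ampd3 (0.933) and H2-T24 (0.926), and to Foxo3 Camk4 (0.955), Pdcd4 (0.952) and Pik3r1 (0.948). Bach2 had Urb1 (0.907), Sdccag3 (0.876) and Map3k14 (0.872). Runx1 and Cbfb had no close match, with Dcp1a at 0.801 and Mfng at 0.774. The order depends on the measure. Ranked by Spearman's rho in the same way, Lrrc32, Il2ra and Tnfrsf1b stood at 93, 225 and 194 for Foxp3 and H2-T24 at 519 for Foxo1, and by Pearson's r of log2(TPM + 1) Mfng stood at 2291 for Cbfb. The libraries share cell types, mice and depth, so these are descriptions of likeness.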

How the data were processed

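Poly(A) RNA of 20 sorted samples was sequenced in stranded, single-end libraries. The authors aligned reads to mm9 with TopHat2 2.1.1, keeping 1 alignment per read at most, and counted them by strand per RefSeq gene with featureCounts (Subread 1.4.3-p1). The deposited counts are these raw counts. The deposited TPM tables were made by the authors from the same libraries, and how they were calculated is not given in the sources used here.

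Each count table was analysed on its own. Genes with a total count of at least 1 were kept, scaled by TMM and tested with edgeR 4.0.16 (limma 3.58.1, R 4.3.3) by the quasi-likelihood test in 1 fit of all 4 groups, with Benjamini-Hochberg adjustment over all genes. Calls were made at adjusted p up to 0.05 with a 1.5-fold change or more. CPM values use TMM-scaled library sizes. The study's own test, DESeq2 (1.42.0 here), was an alternative, as were DESeq2 size factors, a low-count filter, a fit of the 2 groups alone, a robust prior, replicate blocks and leaving out each library. Library totals without TMM, leaving out libraries that stood apart and the settings applied to gene lists were chosen after seeing the data. The calculations were tested on simulated data. Ratios within a library were compared by exact two-sided permutation tests. For correlations, log2 CPM was taken with 2 as the prior count, and genes averaging 10 CPM or more in each table entered.

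The 8 genes and all lists were chosen with earlier results of these data known. All 8 genes were named in every comparison. The 3 genes most like each member were ranked by the rule in the text, and up to 4 called genes per pathway list with the largest changes and at least 10 CPM were named. In addition, Akt1 and Il7r, the Icos value in Treg cells, the values of Prdm1, Bach1 and Fosl2 in spleen and pLNs, and the single marker genes beside Runx3 (Klrb1c, Klrd1, Ncr1, Pax5 and others) were chosen after their values were seen.

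Same-numbered Treg and Foxp3- libraries of mLNs deviated together from their group means in all 6 pairs (r = 0.171, 0.174 and 0.183 in WT and 0.110, 0.372 and 0.390 in DKO), so replicate numbers were taken to pair cell types within a genotype there, from the data and not from the labels. Of the unlike-numbered pairs, DKO Treg 3 with Foxp3- 1 had r = 0.160 and the others were negative. Same-numbered WT and DKO Foxp3- libraries, which are different mice, had r = 0.114, 0.110 and 0.020. The pairing is thus an assumption. Depth was at least 9998478 reads per library, so 3 reads, the limit for a gene at 0, were 0.172 to 0.299 CPM. Intervals and limits of this kind cover counting error only. P-values measure the spread between these samples. Positions come from GENCODE M1 (NCBIM37), and promoter sequences from RefSeq (GRCm38.p6), placed by exact match.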

Additional observations from a re-analysis of the deposited data

Results flagged for a closer look

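Foxo1 in DKO Treg cells lay on opposite sides of WT in the 2 tissues, by changes that did not pass the test. Its log2 fold change was -0.64 in mLNs, where all 3 DKO libraries were under all WT libraries, and 0.14 in spleen and pLNs, where both DKO libraries were above both WT libraries. Groups that do not overlap are common, with 40.5% of all genes in mLN Treg cells and 54.2% in those of spleen and pLNs. The difference between the tissues was not tested, since the tables were normalized apart, and neither change passed the test on its own.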

How the results depend on the processing

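Of 148 counts of called members under other settings, 119 stayed within 1.5 times the count reported, and of 1104 log2 fold changes 979 kept their direction and their side of the threshold. The 2 calls in mLN Treg cells between genotypes stood in every setting run, including each of the 6 Treg libraries left out. Of the Foxp3- libraries in that fit, only DKO replicate 2 was left out.

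Counts between Treg and Foxp3- cells include Foxp3, whose call was fixed by the sort and is no result, so each is 1 above the count of partners. For genotype by cell type in mLNs, where 0 members were called, 1 member (Runx3) was called by DESeq2, with the filterByExpr low-count filter, with the replicate block within genotype and with library totals without TMM, 2 (Runx3 and Foxo3) without the library that stood apart (DKO Foxp3- replicate 2), and 0 to 2 with single libraries left out. In mLN DKO cells, Treg against Foxp3-, 2 were called and 5 without that library, with 2 to 5 over all single libraries left out. For spleen/pLN Treg cells between genotypes, 0 were called against 1 with DESeq2 size factors, 2 by DESeq2, 2 in edgeR on those groups alone and 0 to 2 with single libraries left out. For Foxp3- cells there the range was 0 to 3. For WT Treg against Foxp3- cells of spleen/pLN, 4 were called against 2 with filterByExpr, 2 with library totals, 1 with the replicate block (only Foxp3) and 1 to 2 with single libraries left out. In DKO cells of spleen/pLN, Treg against Foxp3-, 1 was called against 3 without DKO replicate 1 of both cell types and 1 to 3 with single libraries left out. For genotype by cell type there, 0 were called against 1 without both of those libraries and 0 to 2 with single libraries left out. Apart from the fewer libraries, the cause of these changes was not tested.

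Same-numbered Treg and Foxp3- libraries of spleen/pLN correlated in their deviations (r = 0.213 in WT and 0.336 in DKO). With 2 libraries per group, unlike-numbered pairs have the same r with the other sign. Same-numbered WT and DKO libraries, which are different mice, also had r = 0.188 in Treg and 0.221 in Foxp3- cells. These values cannot show whether a number marks a mouse. The study took both cell types of the DKO groups from the same mice, but the labels do not say that a number marks a mouse. With the replicate block the calls between WT cells were lost, with Runx3 -1.0 (adjusted p = 0.163), Bach2 -0.69 (0.0642) and Satb1 -1.69 (0.0666) in WT cells. In mLNs the block changed the calls of Bach2 between cell types and of Runx3 for genotype by cell type given above, and no other member's call.

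Of the values that had been called, 0 turned direction. The values that turned had not been called. Library totals without TMM, which moved the median of all genes by up to 0.18 on the log2 scale, gave Foxp3 0.077 in mLN Treg cells (DKO against WT), Runx3 0.026 in mLN Foxp3- cells (DKO against WT), Cbfb 0.0090 in mLN DKO cells (Treg against Foxp3-), Bach2 0.038 for mLN genotype by cell type, Runx1 0.062 in spleen/pLN Foxp3- cells (DKO against WT), Cbfb 0.0078 and Foxo3 0.012 in spleen/pLN WT cells (Treg against Foxp3-) and Runx1 0.019 and Runx3 0.058 in spleen/pLN DKO cells (Treg against Foxp3-). Without the mLN library that stood apart, values were Cbfb -0.013 in mLN Treg cells (DKO against WT), Foxp3 0.50, Runx3 0.027 and Cbfb -0.036 in mLN Foxp3- cells (DKO against WT) and Foxp3 -0.55 and Satb1 -0.079 for mLN genotype by cell type. Without DKO replicate 1 of both cell types, they were Runx1 -0.12 in spleen/pLN Treg cells (DKO against WT), Foxp3 0.25 and Runx1 0.11 in spleen/pLN Foxp3- cells (DKO against WT), Foxo3 -0.10 in spleen/pLN DKO cells (Treg against Foxp3-) and Runx1 -0.24 and Foxo3 -0.054 for spleen/pLN genotype by cell type. With single libraries left out, the ranges of values that turned were Foxp3 -0.093 to 0.029 and Cbfb -0.034 to 0.047 in mLN Treg cells (DKO against WT), Foxp3 -1.01 to 0.50, Runx3 -0.079 to 0.027 and Cbfb -0.047 to 0.089 in mLN Foxp3- cells (DKO against WT), Runx1 -0.012 to 0.088 in mLN WT cells (Treg against Foxp3-) and Foxp3 -0.55 to 0.96, Cbfb -0.10 to 0.056, Foxo1 -0.47 to 0.040, Bach2 -0.36 to 0.27 and Satb1 -0.079 to 0.31 for mLN genotype by cell type. The others were Runx1 -0.13 to 0.13 in spleen/pLN Treg cells (DKO against WT), Foxp3 -1.29 to 0.24, Runx1 -0.30 to 0.11 and Cbfb -0.060 to 0.078 in spleen/pLN Foxp3- cells (DKO against WT), Cbfb -0.11 to 0.029 in spleen/pLN WT cells (Treg against Foxp3-), Runx1 -0.27 to 0.14, Runx3 -0.64 to 0.36 and Bach2 -0.22 to 0.051 in spleen/pLN DKO cells (Treg against Foxp3-) and Runx1 -0.098 to 0.31 for spleen/pLN genotype by cell type.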
